A study of Mus musculus with 60 samples.

Results

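To evaluate whether donor CD4+ T cells that enter the gut carry the same T cell receptor alpha chains as those in the liver, TRAV and TRAJ usage, V-J pairing and CDR3 features were compared between 6 gut and 6 liver libraries of sorted donor CD4+ T cells, which are 12 of the 60 samples of the series. The libraries were chosen by their labels alone, as all gut and all liver alpha chain libraries of CD4+ cells. Donors were WT C57BL/6 mice, STAT3ko mice (Stat3 fl/fl with CD4-Cre) or STAT3koPD-1ko mice (the same, with PD-1-/- in addition), and each genotype gave 2 gut and 2 liver libraries, numbered 1 and 2. In every group, WT BALB/c hosts were lethally irradiated and received CD90.2+ donor T cells together with T cell-depleted marrow of WT C57BL/6 mice, and lymphocytes were taken on day 6. Each library pooled cells of 3 recipients, sorted as H-2Kb+ TCRβ+ CD4+, so that host T cells, which lack H-2Kb, were gated out. Gut means colon together with small intestine. CD4-Cre deletes Stat3 in the T cell lineage from the thymus onward, whereas PD-1 is absent from every cell of the STAT3koPD-1ko donors, and marrow-derived cells were WT in all groups. The sequences hold no transcript other than the receptor, so the sort and tissue labels could not be checked against marker genes.

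The alpha chain of a T cell receptor is built in the thymus by joining 1 TRAV segment to 1 TRAJ segment, and the junction codes for CDR3, the loop that lies over the peptide in the MHC groove. The first joins use TRAV segments near the TRAJ cluster and TRAJ segments at its 5′ end, and later joins on the same chromosome move outward in both directions. In C57BL/6 mice the middle of the TRAV cluster is repeated, and the copies carry D or N in their names. Copies of a segment can be nearly identical, so the assignment of a read to 1 copy is less certain than its assignment to a family. In graft-versus-host disease, donor CD4+ T cells that recognise host antigens expand and enter the intestine and the liver.

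The values are shares of reads, given as fractions without the number of reads behind them. Depth is therefore unknown and limits the wording of all that follows. Clonotypes are defined by the amino acids of CDR3 alone, and the table lists 62533 of them, each found in at least 2 of 18 joined libraries. It names 109 TRAV and 44 TRAJ segments, 1 of each and 1 nucleotide sequence per clonotype. Reads in which other segments or other bases coded for the same CDR3 are not told apart from these, so every segment share, family sum, V-J pair and junction gap below follows the listed entry.

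Gut libraries numbered 1 and 2 differed in what the table holds of them, and this bears on every comparison. Listed clonotypes covered 92.5% to 94.3% of reads in gut 1 libraries, 81.6% to 83.5% in gut 2 libraries and 94.8% to 97.6% in liver libraries. The number of listed clonotypes ranged from 20345 to 27874 in gut 1, from 6748 to 13102 in gut 2 and from 13377 to 22620 in liver. Libraries also shared clonotypes unequally. The overlap of 2 libraries, taken as the sum of the smaller frequency of each clonotype, was 39.1% ± 7.68 (SD, n = 3) between gut 1 and liver 1 of one genotype, against 26.7% ± 2.12 (n = 6) between different genotypes. Between gut 1 and liver 2 it was 39.5% ± 5.36 (n = 3) within a genotype and 29.4% ± 2.47 (n = 6) across genotypes. Gut 2 libraries overlapped with liver 1 of their own genotype by 22.6% ± 4.92 (n = 3), close to the 21.8% ± 2.30 (n = 6) of other genotypes. With liver 2 the values of gut 2 were 24.0% ± 5.44 (n = 3) and 23.5% ± 2.87 (n = 6). Liver 1 and liver 2 overlapped by 24.2% ± 4.22 (n = 3) within a genotype and 24.1% ± 1.83 (n = 6) across genotypes. Gut 1 thus shared more with each liver library of its genotype than these shared with each other. Neither gut set is therefore taken as the cleaner one. Each result below is therefore also given for gut 1 alone and for gut 2 alone against all 6 liver libraries, where this ended a call. The part of these differences in the results was not tested.

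Of the listed reads of a gut library, 59.7% to 79.0% fell in clonotypes that a liver library of the same genotype also held. The 7597 clonotypes present in at least 9 of the 18 joined libraries took 54.6% to 57.3% of all reads of each gut library and 53.9% to 57.4% of each liver library. These widely shared clonotypes are a subset that covered gut and liver about equally as a share of all reads, and were used as an alternative. As a share of listed reads they took 67.0% to 68.8% in gut 2, 58.1% to 59.4% in gut 1 and 55.3% to 59.0% in liver.

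Receptors of the segments with a difference are shown by their CDR3, each being the most frequent clonotype of its segment over the 12 libraries. None is shown for TRAV5-1 and TRAJ45, whose most frequent clonotypes were each present in only 2 of the 12. Lower case marks the codons of the first 3 and last 4 residues, which are largely set by the V and J segments, and capitals mark the core between them. The core can also hold residues coded by V or J.
TRAV7-5 with TRAJ34, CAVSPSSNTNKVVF: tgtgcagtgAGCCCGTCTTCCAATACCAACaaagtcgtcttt
TRAV16N with TRAJ15, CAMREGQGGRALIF: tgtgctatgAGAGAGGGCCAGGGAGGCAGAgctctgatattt
TRAV8D-1 with TRAJ15, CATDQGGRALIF: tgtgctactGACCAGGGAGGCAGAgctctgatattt
TRAV17 with TRAJ58, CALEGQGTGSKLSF: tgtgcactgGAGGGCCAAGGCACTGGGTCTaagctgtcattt
TRAV21-DV12 with TRAJ56, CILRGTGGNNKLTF: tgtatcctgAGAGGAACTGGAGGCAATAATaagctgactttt
TRAV6-5 with TRAJ31, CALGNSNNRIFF: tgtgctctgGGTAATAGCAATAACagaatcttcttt
TRAV14N-3 with TRAJ7, CAASDYSNNRLTL: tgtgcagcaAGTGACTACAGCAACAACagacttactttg
These starts differ in charge. TRAV16N receptors start with CAMR in 90.9% of their reads, followed by glutamate (E) in the example shown, and TRAV17 receptors start with CALE in 69.1%. TRAV8D-1 receptors start with CATD, which holds aspartate (D), in 34.5% of their reads. The R of CAMR is arginine, a basic residue, and TRAV21-DV12 receptors start with CILR in 79.0%.

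TRAV usage differed between gut and liver in a few segments, most of which were used less in gut. Usage is given as the percent of a library's listed reads, and differences as log2(percent + 0.1) with limma and Benjamini-Hochberg adjustment. Of 46 TRAV segments whose mean usage reached 0.5%, 7 passed an adjusted p of 0.05, which is 15.2% of those tested. TRAV7-5 alone was higher in gut (2.17%) and 6 segments were lower (13%), and 12 of the 46 had an unadjusted p under 0.05. The median log2 difference over all 46 was -0.04. Without dividing by the listed share, which lowers gut 2 as a whole, the median was -0.15 and the split was 0 higher and 8 lower. In these pooled samples fewer cells of a receptor and less receptor mRNA per cell cannot be told apart.

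TRAV16N showed the smallest p. It lies at chr14:53351028-53351621 on the plus strand of mm10, among the N copies in the middle of the cluster. Its usage in gut had a lowest, median and highest value of 1.75%, 2.47% and 2.81%, and in liver of 3.26%, 3.60% and 4.26%. The groups did not overlap, with every gut library below every liver library. The means were 2.33% ± 0.46 (SD, n = 6) in gut and 3.65% ± 0.36 (n = 6) in liver, a log2 difference of -0.64 (SE 0.13) with a limma adjusted p of 0.00598. The share of TRAV16N was spread over 147 to 912 clonotypes in each gut library and 415 to 714 in each liver library, the most frequent of which took at most 13.7% of it. With gut 1 libraries alone against all liver libraries it was the only segment to pass (log2 difference -0.50, adjusted p = 0.0263). It was also the only one to pass among clonotypes of at least 9 libraries (-0.62, adjusted p = 0.00684). The 3 spleen libraries, 1 of naive donor cells per genotype taken before transplantation, held 3.28% to 3.88%. They overlapped with liver 1 of their genotype by 50.4% ± 4.80 (n = 3), and with liver 2 by 20.4% ± 3.48 (n = 3), where other genotypes gave 20.2% ± 2.24 (n = 6).

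TRAV8D-1, a D copy at chr14:52778447-52778995 (plus strand) in the part farthest from the TRAJ cluster, was the other segment without overlap. Gut libraries ranged from 1.53% to 3.07% with a median of 2.69%, and liver libraries from 3.16% to 3.86% with a median of 3.53%. Its log2 difference was -0.59 (SE 0.15, adjusted p = 0.0300), and 2 of 46 segments (4.35%) had groups that did not overlap. The 3 gut 1 libraries lay within 2.68% to 2.71%, while 2 of the gut 2 libraries, those of STAT3ko and STAT3koPD-1ko donors, were the lowest at 1.53% and 1.57%. With gut 1 alone the difference was -0.36 with an adjusted p of 0.139.

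TRAV7-5, at chr14:53530786-53531313 (plus strand), was the segment that rose in gut. Its usage had a lowest, median and highest value of 6.75%, 8.73% and 12.4% in gut, and of 5.53%, 6.31% and 7.46% in liver. The groups overlapped, and the gut 2 libraries (9.31% to 12.4%) lay above all others. The log2 difference was 0.49 (SE 0.15, adjusted p = 0.0300). For gut 1 alone, with 6.75% to 8.14%, it was 0.20 (adjusted p = 0.406), and for gut 2 alone it was 0.79 (adjusted p = 0.000456). Without dividing by the listed share it was 0.36 (adjusted p = 0.0782). One clonotype, the TRAV7-5 receptor printed above, held 0.837% of the STAT3ko gut 2 library and at most 0.0223% of any other gut library.

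A further 4 segments fell in gut with the same adjusted p of 0.0300. TRAV5-1, at the end of the cluster farthest from the TRAJ segments (chr14:52622566-52623082), averaged 0.445% ± 0.23 in gut and 0.726% ± 0.12 in liver. TRAV6-5 (chr14:53491115-53491622) averaged 1.53% ± 0.34 and 2.1% ± 0.20. TRAV17 (chr14:53806639-53807115) and TRAV21-DV12 (chr14:53875984-53876752) lie next to the TRAJ cluster, and TRAV21-DV12 can also join to a delta chain. TRAV17 averaged 0.630% ± 0.14 in gut and 0.885% ± 0.15 in liver, and TRAV21-DV12 1.33% ± 0.26 and 1.85% ± 0.51 (SD, n = 6 each). The log2 differences of these segments lay between -0.69 and -0.43, and each passed with gut 2 alone but not with gut 1 alone. In the list of segments nearest to TRAJ (TRAV17, TRAV19 and TRAV21-DV12), 2 of 3 members fell, beside 13% of all 46, and TRAV19 went the other way at 0.36 (adjusted p = 0.0889). The median of the list was -0.43 beside -0.04 over all 46. TRAV5-1, TRAV16N and TRAV8D-1, all lower in gut, had been named in earlier work on the same libraries, so their 3 calls of 3 are no independent evidence. TRAV7D-2 and TRAV14N-3, the most used segments after TRAV7-5, did not pass, with 7.86% ± 0.76 and 5.17% ± 0.67 in gut and 6.92% ± 0.56 and 4.89% ± 0.44 in liver (adjusted p = 0.267 and 0.733). TRAV9-2 had a larger difference (-0.64, SE 0.22) but an adjusted p of 0.0591, and its gut 2 libraries (0.214% to 0.249%) lay below its gut 1 libraries (0.506% to 0.702%).

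Except for TRAV16N, these calls changed when single libraries were left out. The number of segments that passed was 1 without the STAT3koPD-1ko gut 2, STAT3ko liver 1, STAT3ko liver 2, STAT3koPD-1ko liver 1 or STAT3koPD-1ko liver 2 library. It was 2 without STAT3ko gut 2, 4 without WT gut 2 or WT liver 1, and 8 or 9 without each of the other 4. TRAV16N passed in each of these 12 fits, but not without the limit on low usage (adjusted p = 0.0621) or with libraries numbered 1 only (adjusted p = 0.0530). With the replicate number as a block term 9 segments passed, 2 higher and 7 lower, and with genotype and number pairs as the block 8 did, 1 higher and 7 lower. When each clonotype was counted once, whatever its frequency, no segment passed with limma, 14 had an unadjusted p under 0.05, and TRAV16N stood at -0.23 (adjusted p = 0.158).

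**Figure D1:**
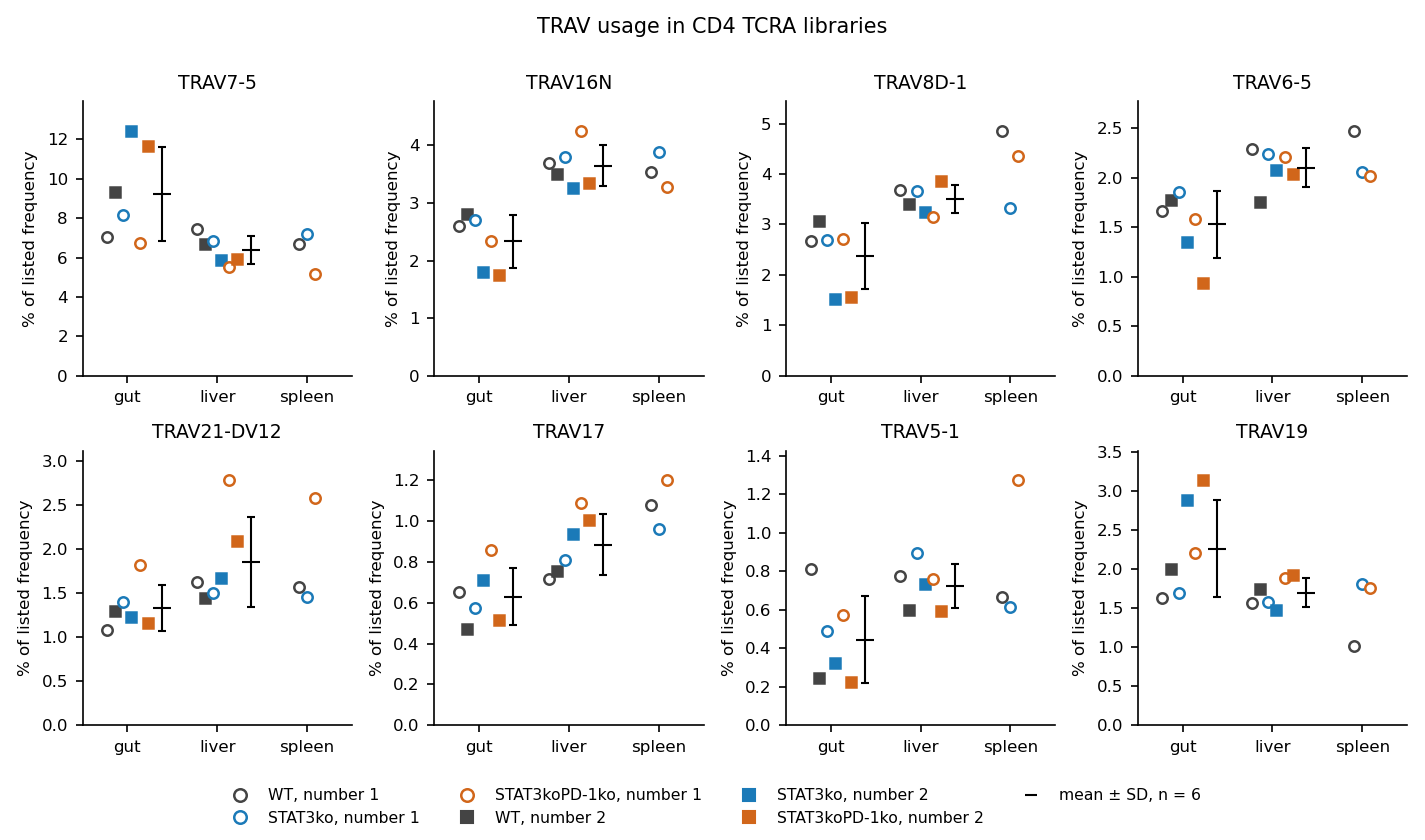
Usage of 8 TRAV segments as the percent of listed reads (vertical axes, from 0) in the gut, liver and naive donor spleen libraries. Points are libraries, coloured by genotype, with open circles for number 1 and filled squares for number 2, and bars are the mean ± SD of 6 libraries. TRAV16N and TRAV8D-1 show no overlap between gut and liver, and TRAV7-5 is highest in the gut libraries numbered 2, at 9.31% to 12.4%.

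Summed over copies, TRAV families gave a picture that does not rest on the assignment to single copies. Of 16 families, 7 passed (43.8%), with 2 higher in gut (12.5%) and 5 lower (31.2%), or 0 higher and 5 lower without dividing by the listed share. The TRAV7 family, the most used, rose from 23.4% ± 1.51 of liver reads to 28.5% ± 3.16 of gut reads, with a lowest, median and highest value of 20.7%, 23.5% and 25.3% in liver and 24.8%, 27.9% and 33.1% in gut. Its log2 difference was 0.28 (SE 0.08, adjusted p = 0.0204). TRAV19, a family of 1 segment, rose from 1.69% ± 0.19 to 2.26% ± 0.62 (0.36, adjusted p = 0.0464). Both rises were lost without dividing by the listed share (adjusted p = 0.157 and 0.128) and with gut 1 alone (0.177 and 0.325). The TRAV19 call was also lost without any one of the 3 gut 2 libraries, WT liver 1 and both liver libraries of STAT3ko and STAT3koPD-1ko donors (adjusted p = 0.0725 to 0.113).

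Among the families that fell, TRAV16, TRAV8 and TRAV6 had no overlap between gut and liver, as did 18.8% of all families tested. TRAV16 averaged 2.52% ± 0.41 in gut and 3.74% ± 0.35 in liver, with a log2 difference of -0.56 (SE 0.11, adjusted p = 0.00376). TRAV8 averaged 2.67% ± 0.65 and 3.85% ± 0.23 (-0.55, adjusted p = 0.0147). TRAV6, the largest of them, averaged 10.9% ± 0.99 and 12.9% ± 1.03 (-0.25, adjusted p = 0.0362). The TRAV6 call was lost with gut 1 alone (-0.19, adjusted p = 0.0931), while gut 2 alone gave -0.30 (adjusted p = 0.0407). It was also lost without WT gut 1, STAT3ko gut 2, STAT3koPD-1ko gut 2, WT liver 1, STAT3ko liver 2 or STAT3koPD-1ko liver 1 (adjusted p = 0.0598 to 0.0937). TRAV14, the second most used family, held 17.8% ± 0.88 and 17.3% ± 0.83 and did not pass (adjusted p = 0.747). TRAV17 and TRAV21 fell by 0.44 and 0.43 on the log2 scale. TRAV16, TRAV8, TRAV17 and TRAV21 passed with gut 1 alone as well as with gut 2 alone, and in each fit without 1 library. TRAV17 and TRAV21 are families of 1 segment with the values given above, adjusted here over 16 families in place of 46 segments. As segments, neither passed with gut 1 alone, and their calls were lost in 6 and 7 of the fits without 1 library. The number of families that passed was 4 without STAT3ko gut 2 and 4 without STAT3koPD-1ko liver 1, when the TRAV7 rise was lost (adjusted p = 0.0534 and 0.0554). With each clonotype counted once, no family passed and 7 had an unadjusted p under 0.05.

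By position, the 6 segments used less in gut came from all 3 parts of the TRAV cluster. The D copies as a whole took 32.7% ± 0.86 of gut reads and 32.5% ± 1.62 of liver reads, the N copies 21.8% ± 1.00 and 23.4% ± 1.06, and the segments with neither letter 45.4% ± 1.51 and 44.1% ± 2.14 (SD, n = 6 each). Of the tested members of these lists, 1 of 13 D copies and 1 of 9 N copies fell, and of the 24 others 1 rose and 4 fell, beside 2.17% of all 46 segments that rose and 13% that fell. TRAV1, TRAV2 and TRAV3-1 were fixed as the segments farthest from TRAJ, and all were below 0.5%. TRAV2, at 0.0294% to 0.0878% in gut and 0.0793% to 0.163% in liver, was left untested on that ground.

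**Figure D2:**
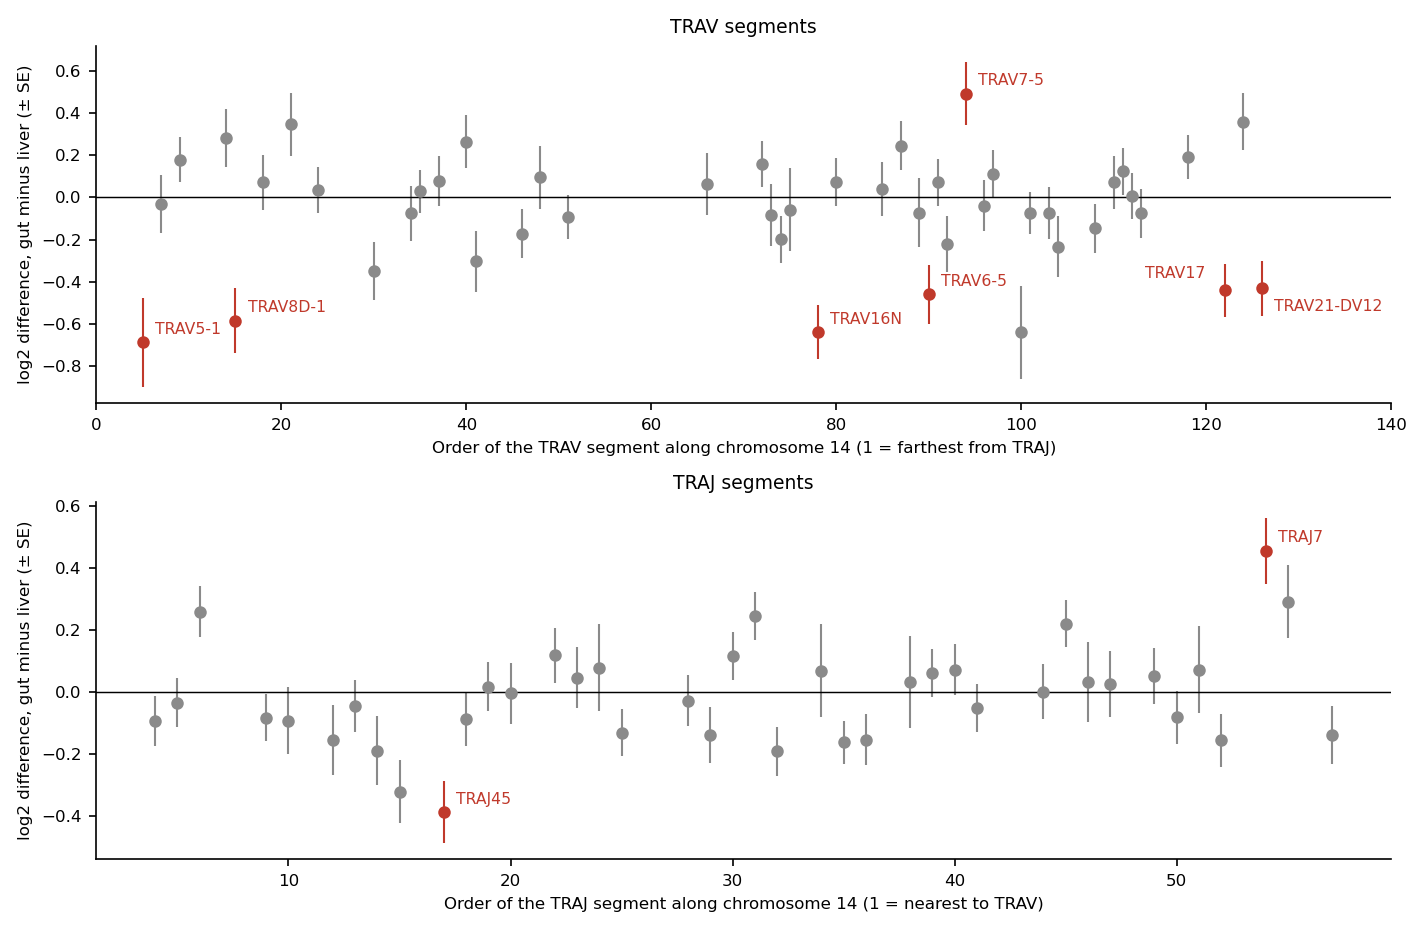
The log2 difference in usage, gut minus liver (vertical axes), of each tested TRAV and TRAJ segment by its order along the chromosome (horizontal axes, with TRAV1 as first TRAV and TRAJ61 as first TRAJ). Points are estimates with standard errors, and the 7 TRAV and 2 TRAJ segments in red, which passed an adjusted p of 0.05, lie in several parts of both clusters.

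TRAJ usage differed less. Of 40 TRAJ segments tested, 2 passed (5%), TRAJ7 upward and TRAJ45 downward, 9 had an unadjusted p under 0.05, and the groups overlapped in every one (0%). Without dividing by the listed share 1 rose and 5 fell, around a median of -0.15 in place of -0.02. TRAJ7, near the 3′ end of the cluster (chr14:54211470-54211528, plus strand), had a lowest, median and highest usage of 1.29%, 1.93% and 2.47% in gut and of 0.919%, 1.47% and 1.58% in liver. Its mean rose from 1.37% ± 0.26 to 1.92% ± 0.38 (SD, n = 6 each), a log2 difference of 0.46 (SE 0.11, adjusted p = 0.0228). TRAJ45, nearer the 5′ end (chr14:54172828-54172890), fell from 0.982% ± 0.10 to 0.734% ± 0.14 (-0.39, SE 0.10, adjusted p = 0.0249).

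The most used segments, TRAJ31, TRAJ23 and TRAJ37, did not pass. TRAJ31 held 7.97% ± 0.86 of gut reads and 6.69% ± 0.52 of liver reads (0.25, SE 0.08, adjusted p = 0.0543), TRAJ23 5.52% ± 0.43 and 5.28% ± 0.40, and TRAJ37 5.13% ± 0.33 and 5.64% ± 0.45.

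The most frequent clonotype of TRAJ7 was more frequent in every gut library than in any liver library. The receptor of TRAV14N-3 and TRAJ7 printed above was found in all 18 joined libraries and ranged from 0.227% to 0.470% of listed reads in gut and from 0.0587% to 0.172% in liver, without overlap, as was the case for 3 of the 3937 recurrent clonotypes (0.0762%). It took 16.2% to 22.6% of TRAJ7 reads in gut and 6.39% to 12.4% in liver. Tested among all recurrent clonotypes its log2 difference of 1.43 (SE 0.66) had an unadjusted p of 0.0395 and did not pass. Without the most frequent clonotype of each segment, an alternative chosen after the data were seen, TRAJ7 stood at 0.33 (adjusted p = 0.0591). Among clonotypes of at least 9 libraries it stood at 0.66 (adjusted p = 0.00131).

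Neither TRAJ call was stable to the libraries used. TRAJ7 had an adjusted p of 0.0646 with gut 1 alone and 0.0161 with gut 2 alone, and of 0.0696 without STAT3ko liver 2 and without STAT3koPD-1ko liver 1. TRAJ45 had 0.0646 and 0.0805 with gut 1 and gut 2 alone, and lost its call without WT gut 2, STAT3ko gut 1, WT liver 2, STAT3ko liver 2, STAT3koPD-1ko liver 1 or STAT3koPD-1ko liver 2 (0.0518 to 0.0755). The number of TRAJ segments that passed was 4 without STAT3koPD-1ko gut 1. With each clonotype counted once, none passed and 1 had an unadjusted p under 0.05. With the replicate number as a block term 3 TRAJ segments passed, and with pairs as the block 2 did. The ends of the cluster were also summed. TRAJ61 to TRAJ56, the 5′ end, held 3 tested members of which none passed, with 5.44% ± 1.07 of gut reads and 5.12% ± 1.05 of liver reads. TRAJ7 to TRAJ2, the 3′ end, held 3 tested members of which TRAJ7 passed, beside 1 of all 40 that rose, with 5.73% ± 0.60 and 5.07% ± 0.71. Its median log2 difference was 0.29 beside -0.02 over all 40, and that of the 5′ end was -0.03.

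To see whether gut and liver cells came from earlier or later joins, V-J pairs were grouped by locus position, with TRAV in 3 equal parts by order and TRAJ as near (61 to 42), middle (41 to 22) and far (21 to 1). None of the 9 blocks passed (0%), and 1 had an unadjusted p under 0.05. That block joined middle TRAV with near TRAJ and held 3.01% ± 0.39 of gut reads and 3.78% ± 0.83 of liver reads (log2 difference -0.30, SE 0.11, adjusted p = 0.112), and the groups overlapped. The largest block, proximal TRAV with middle TRAJ, held 22.1% ± 0.87 and 20.7% ± 1.67. The block of the first joins, proximal TRAV with near TRAJ, held 14.1% ± 1.38 in gut and 13.98% ± 1.56 in liver, and the block of the latest joins, distal TRAV with far TRAJ, 11.2% ± 0.83 and 10.7% ± 1.33. Without STAT3koPD-1ko gut 2, 1 block passed. With the replicate number as a block term 1 position block passed, lower in gut (adjusted p = 0.0260), and 1 did so with genotype and number pairs as the block (adjusted p = 0.0321).

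**Figure D3:**
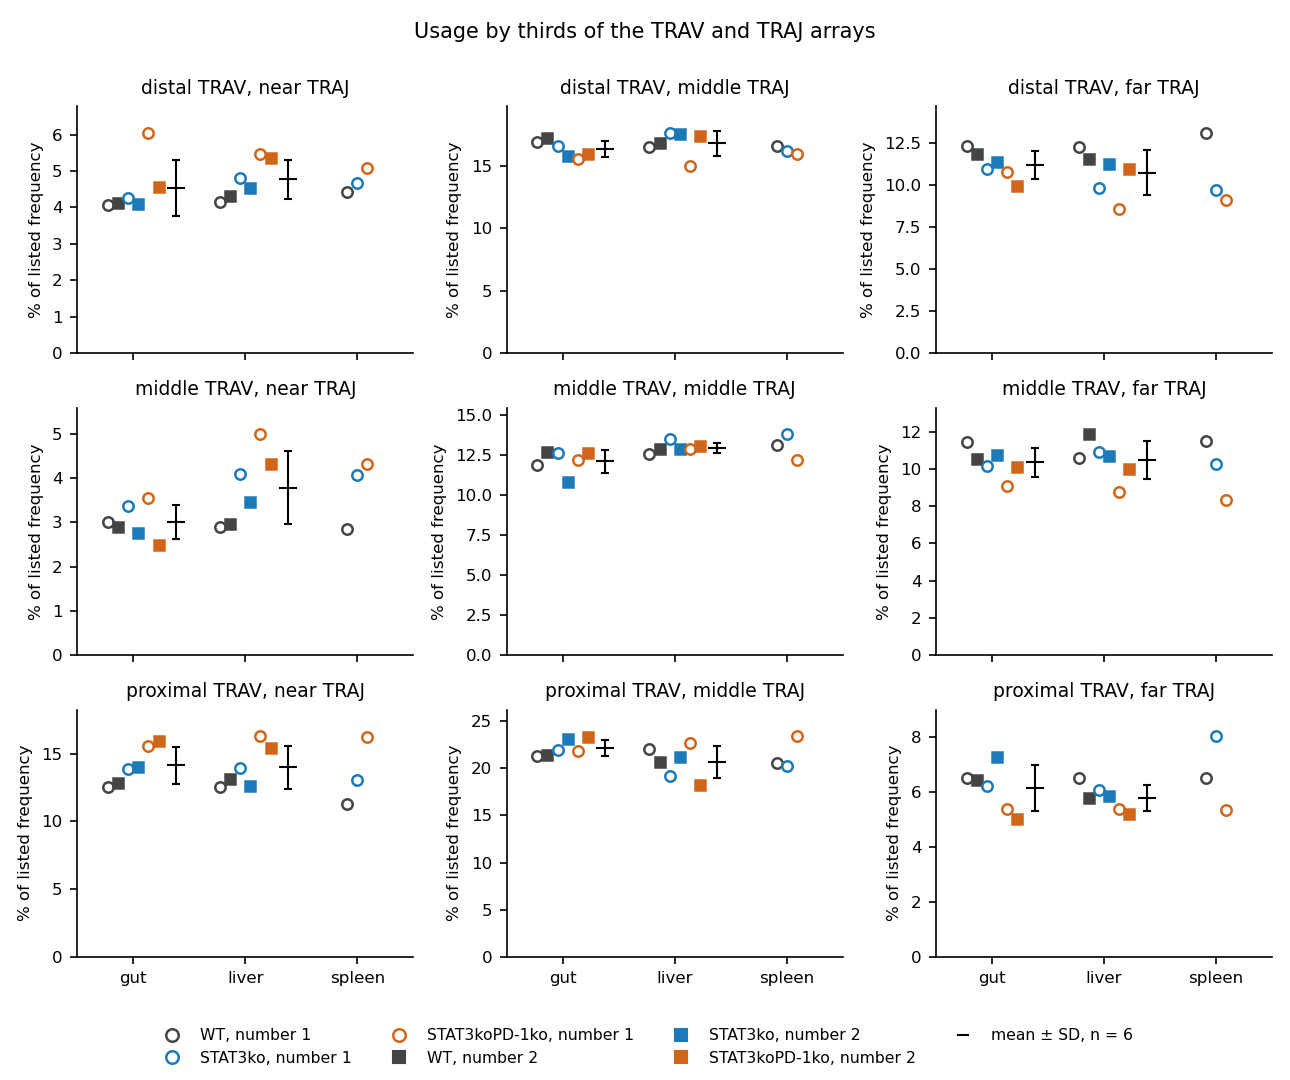
Percent of listed reads (vertical axes, from 0) in the 9 blocks of TRAV and TRAJ position, in the gut, liver and naive donor spleen libraries. Points are libraries, coloured by genotype, with open circles for number 1 and filled squares for number 2, and bars are the mean ± SD of 6 libraries. Gut and liver overlap in all 9 blocks, with means of 14.1% and 13.98% in proximal TRAV with near TRAJ.

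Position along the locus was also summarised per library. The mean TRAV order was 67.1 ± 1.30 in gut and 66.5 ± 1.49 in liver, on a scale of 128 annotated genes counted toward TRAJ (exact permutation test within genotypes, two-sided, adjusted p = 0.497). The mean TRAJ number was 29.7 ± 0.95 and 30.0 ± 1.2 (exact permutation adjusted p = 0.494). Across pairs, proximal TRAV went with 5′ TRAJ to a like degree in both tissues. The correlation of TRAV order with TRAJ number, which is highest at the 5′ end, was 0.302 to 0.318 in gut libraries and 0.265 to 0.321 in liver libraries. The points of that correlation are V-J pairs of 1 library, weighted by reads, and it is given as a description.

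Single V-J pairs were tested where their mean usage was at least 0.1%. Of 243 pairs none passed (0%), and 33 had an unadjusted p under 0.05. The most used pairs were TRAV7-5 with TRAJ31, TRAV7-5 with TRAJ23 and TRAV7D-2 with TRAJ22, at 0.846%, 0.768% and 0.707% in gut and 0.552%, 0.514% and 0.526% in liver (adjusted p = 0.318, 0.356 and 0.403). The pairs of smallest p, named after their values were seen, are given next, and 1.65% of the 243 had groups that did not overlap. TRAV7D-2 with TRAJ32 ranged from 0.105% to 0.245% in gut and from 0.0371% to 0.103% in liver, without overlap (log2 difference 1.02, SE 0.25, adjusted p = 0.107). TRAV14N-3 with TRAJ7 ranged from 0.372% to 1.05% and from 0.142% to 0.450% (1.11, SE 0.27, adjusted p = 0.107). TRAV7-5 with TRAJ32 had a difference of 1.08 (adjusted p = 0.202). In the other direction, TRAV16N with TRAJ37, TRAV8D-1 with TRAJ27 and TRAV8D-1 with TRAJ30 had differences of -0.90, -1.05 and -1.12 (adjusted p = 0.151, 0.151 and 0.226). The TRAV16N pair ranged from 0.0826% to 0.215% in gut and from 0.204% to 0.365% in liver. Without STAT3ko gut 2, 1 pair passed.

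CDR3 length was close to equal. The mean length was 13.38 ± 0.04 residues in gut and 13.41 ± 0.02 in liver (exact permutation adjusted p = 0.296). Of 8 lengths tested, none passed (0%) and 2 had an unadjusted p under 0.05. A length of 13 residues, the commonest, held 35.2% ± 1.6 of gut reads and 33.1% ± 1.14 of liver reads (log2 difference 0.09, adjusted p = 0.192). A length of 17 residues held 0.425% ± 0.20 and 0.708% ± 0.08 (-0.71, SE 0.24, adjusted p = 0.134). The gut 2 libraries stood apart there at 0.229% to 0.270%, while gut 1 libraries (0.581% to 0.636%) reached into the range of liver (0.603% to 0.796%). Without WT gut 1, 1 length passed, and 1 did so with the replicate number as a block term (adjusted p = 0.0242).

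The residues of the core, between the first 3 and last 4 positions, differed in acidic side chains. Of 20 residues, 2 passed (10%), both lower in gut. Aspartate had a lowest, median and highest share of core residues of 2.37%, 2.63% and 2.73% in gut and of 2.76%, 2.8% and 3.00% in liver, so that the groups did not overlap, as in 5% of the residues. Its mean fell from 2.82% ± 0.09 in liver to 2.60% ± 0.12 in gut (log2 difference -0.11, SE 0.03, adjusted p = 0.0351). Glutamate ranged from 2.13% to 2.59% in gut and from 2.58% to 2.87% in liver, with the highest gut and the lowest liver library overlapping by a small margin. Its mean fell from 2.73% ± 0.10 to 2.37% ± 0.20 (-0.20, SE 0.05, adjusted p = 0.0367). Both acidic residues together made up 4.98% ± 0.28 of gut cores and 5.55% ± 0.11 of liver cores.

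The other residue groups held no member that passed. The polar residues S, T, N and Q took 47.2% to 49.5% of cores in gut and 46.4% to 46.7% in liver, without overlap. Of the other groups only the acidic residues did not overlap, at 4.51% to 5.24% in gut and 5.37% to 5.68% in liver. Serine and asparagine had limma adjusted p-values of 0.0861 each. The positive residues K, R and H took 5.46% ± 0.16 and 5.50% ± 0.12. The hydrophobic residues took 12.8% ± 0.39 in gut and 13.3% ± 0.19 in liver. Shares of residues sum to 100% in a library, so they are not independent of each other.

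The share of acidic cores differed between the segments named above. A core with D or E was present in 74.9% of TRAV16N reads, 72.6% of TRAV17 reads and 47.3% of TRAV8D-1 reads, all segments that were lower in gut, and in 12.5% of TRAV7-5 reads, the segment that was higher. Over all clonotypes of the table it was present in 30.1%. TRAV5-1, lower in gut, held it in 9.37% of reads, TRAV21-DV12 in 20.04% and TRAV6-5 in 33.2%. TRAJ7, higher in gut, held it in 67.3% of reads, and TRAJ45, lower in gut, in 99.1%. Basic residues (K, R or H) did not follow the same order. They made up 14.4% of the core residues of TRAV16N, where D and E made up 11.5%, and 12.2% of those of TRAV21-DV12, where D and E made up 3.29%. In TRAV17 the shares were 2.79% basic and 12% acidic, in TRAV8D-1 3.55% and 9.30%, and in TRAV7-5 6.18% and 2.21%. Over the whole table they were 5.48% and 5.26%. With the first 4 and last 5 residues left out, 1 of the 2 calls remained (limma adjusted p = 0.00982). With TRAJ usage held at its mean 3 residues passed. When TRAV usage was held at its mean in every library, an alternative chosen after the data were seen, no residue passed, and glutamate stood at -0.09 (adjusted p = 0.0753) and aspartate at -0.04 (adjusted p = 0.128). With gut 1 alone no residue passed, and with gut 2 alone 9 did. Each of the 2 calls was lost in several of the fits without 1 library. Glutamate lost it without any one of WT gut 2, STAT3ko gut 2, STAT3koPD-1ko gut 2 and the 6 liver libraries (adjusted p up to 0.113). Aspartate lost it without WT gut 2, STAT3ko gut 2 or any liver library except STAT3ko liver 1 (adjusted p up to 0.0947). Without STAT3ko gut 1, 4 residues passed. With the replicate number as a block term 4 residues passed, 1 higher and 3 lower in gut. With clonotypes counted once none passed and none had an unadjusted p under 0.05.

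**Figure D4:**
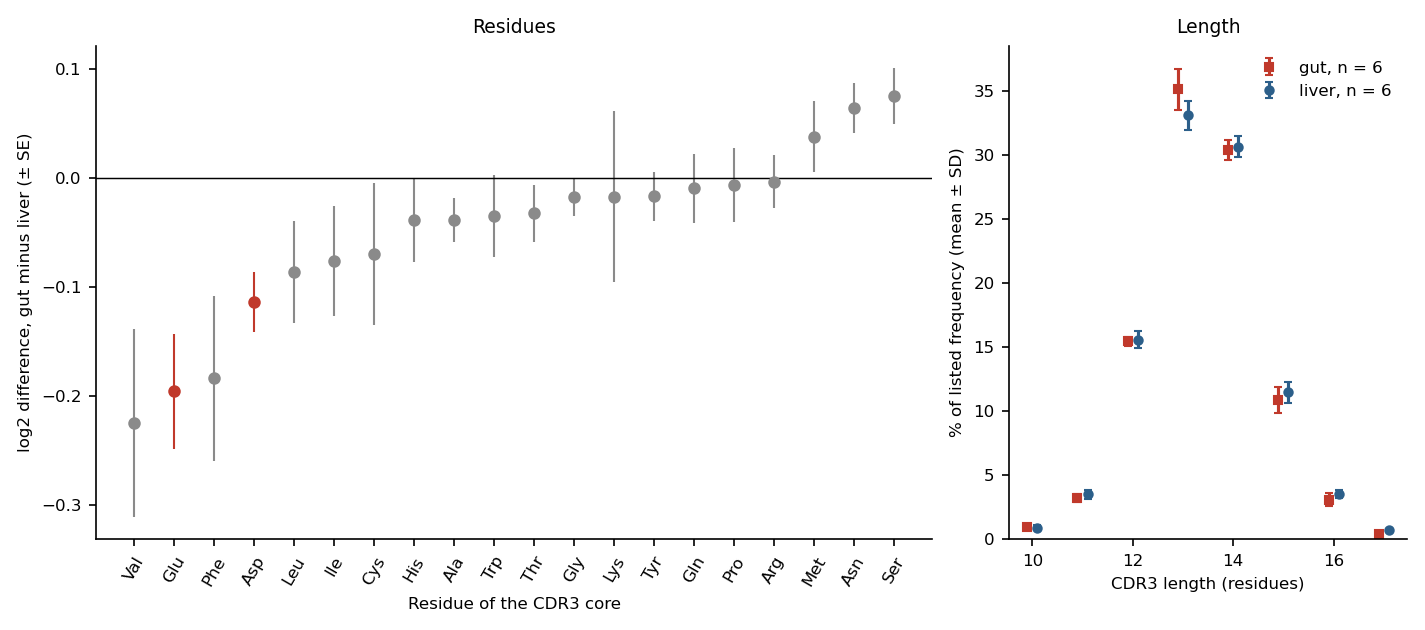
Left, the log2 difference in the share of each residue of the CDR3 core, gut minus liver, with standard errors, and in red the residues that passed. Right, the percent of listed reads by CDR3 length as mean ± SD of 6 gut and 6 liver libraries. Aspartate (-0.11) and glutamate (-0.20) are the residues that passed, and the lengths follow each other closely, with 35.2% and 33.1% at 13 residues.

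Repertoire means over the core were tested by exact permutation within genotypes, two-sided, which cannot give a p below 0.00926. Of 8 means, 3 passed after adjustment, each with an exact permutation adjusted p of 0.0494. The mean net charge was 0.006 ± 0.015 in gut and -0.029 ± 0.012 in liver. The mean hydropathy, on the Kyte-Doolittle scale, was -1.330 ± 0.022 in gut and -1.297 ± 0.014 in liver, so gut cores were slightly more hydrophilic. The gap between the end of the V segment and the start of the J segment, which holds bases added at the junction, was 1.93 ± 0.21 bases in gut and 2.21 ± 0.06 in liver (SD, n = 6 each). In the gap the gut 2 libraries stood apart from the rest. They ranged from 1.67 to 1.78 bases, gut 1 libraries from 2.1 to 2.14 and liver libraries from 2.14 to 2.28. Among clonotypes of at least 9 libraries the difference in the gap shrank from -0.28 to -0.08 (exact permutation adjusted p = 0.123), while charge and hydropathy kept their calls (exact permutation adjusted p = 0.0370 each). With genotype and number pairs as a block these 3 means had the smallest exact permutation p that the design allows, 0.0313, which comes to an adjusted p of 0.0833 over the 8 means. No mean passed without STAT3koPD-1ko gut 2 or without any one of the 6 liver libraries. The effective number of V-J pairs, the count of equally used pairs with the same diversity, was 1015 ± 214 in gut and 1081 ± 58.8 in liver. It was 1159 to 1225 in gut 1 and 753 to 1001 in gut 2, above and below all 6 liver libraries (1010 to 1148).

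**Figure D5:**
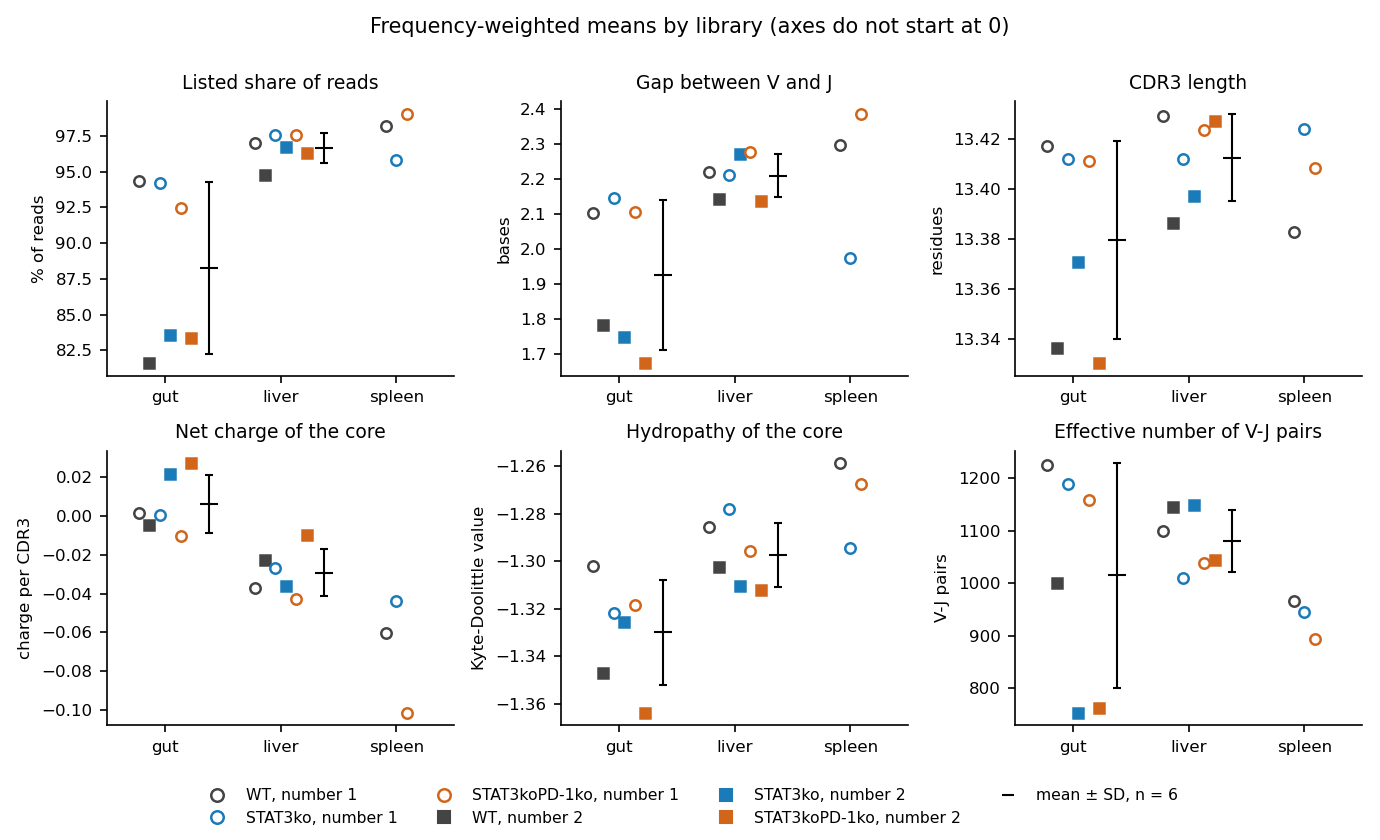
The listed share of reads and 5 of the repertoire means (vertical axes in the unit of each panel, not starting at 0) in the gut, liver and naive donor spleen libraries. Points are libraries, coloured by genotype, with open circles for number 1 and filled squares for number 2, and bars are the mean ± SD of 6 libraries. The listed share and the gap from V to J are lowest in the 3 gut libraries numbered 2, at 81.6% to 83.5% and 1.67 to 1.78 bases.

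Single receptors were compared last. Of 3937 clonotypes recurrent over the libraries none passed (0%) and 191 had an unadjusted p under 0.05. These clonotypes were above 0 in at least 9 of the 12 libraries. The receptors with the smallest p in each direction were fixed as those to be named, and their CDR3s follow, marked as before.
TRAV19 with TRAJ49, higher in gut: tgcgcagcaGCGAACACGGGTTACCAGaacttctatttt
TRAV7-5 with TRAJ24, higher in gut: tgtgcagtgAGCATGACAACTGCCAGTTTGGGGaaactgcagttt
TRAV7-4 with TRAJ39, higher in gut: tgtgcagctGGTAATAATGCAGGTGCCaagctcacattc
TRAV16N with TRAJ49, lower in gut: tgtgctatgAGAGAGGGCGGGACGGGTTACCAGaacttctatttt
TRAV11 with TRAJ18, lower in gut: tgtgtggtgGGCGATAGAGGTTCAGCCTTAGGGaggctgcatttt
TRAV16N with TRAJ26, lower in gut: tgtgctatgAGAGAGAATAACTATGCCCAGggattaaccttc
The TRAV19 receptor had a median of 0.0134% in gut and 0.000794% in liver, and the log2 differences of the 3 higher in gut lay between 2.69 and 3.00. The TRAV16N receptor with TRAJ49 had a median of 0.00160% in gut and 0.0313% in liver, and was listed at 0 in the gut 2 libraries of STAT3ko and STAT3koPD-1ko donors. The 3 lower in gut had differences from -2.88 to -2.48. Adjusted p-values were 0.789 for all but the last (0.935), so none of these differences stood out from those of the 3937.

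The TRAV11 receptor with TRAJ18 is the alpha chain of invariant NKT cells, which see glycolipids on CD1d and are abundant in mouse liver. All TRAV11 and TRAJ18 clonotypes of the canonical 15 residues, 11 in number, summed to a median of 0.00661% in gut (range 0 to 0.0409%) and 0.0254% in liver (0.00442% to 0.0375%). The ranges overlapped, and 1 gut library was listed at 0. The chain of MAIT cells, TRAV1 with TRAJ33 at 12 residues, was listed at 0 in 4 of 6 gut libraries and did not exceed 0.00220% in liver. Both invariant chains were thus rare in each tissue, and the means above passed the same tests without them.

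The tissue difference was compared between genotypes by an interaction term over all 86 TRAV and TRAJ segments tested. None passed (0%), and 1, TRAV10D, had an unadjusted p under 0.05, with a limma adjusted p of 0.98. With 2 libraries per tissue and genotype, a p that misses the threshold does not show that the genotypes were alike.

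Donor CD8+ T cells of the same design gave another set of segments that passed. In them 5 of 41 TRAV segments passed between gut and liver, 3 higher and 2 lower in gut, and 1 of 41 TRAJ segments. Of the 7 TRAV and 2 TRAJ segments that passed in CD4+ cells, none passed in CD8+ cells, where TRAV21-DV12 and TRAV5-1 were below the usage limit. Of those tested in both, TRAV8D-1 alone went the other way. The log2 differences in CD8+ cells were 0.19 for TRAV7-5, -0.17 for TRAV17, -0.11 for TRAV6-5 and -0.07 for TRAJ45. TRAV16N took 23.9% ± 1.05 of gut reads and 27.4% ± 0.81 of liver reads (log2 difference -0.20, SE 0.07, adjusted p = 0.0749). TRAV8D-1 had 3.22% ± 0.50 in gut and 2.68% ± 0.48 in liver (0.26, SE 0.13, adjusted p = 0.145), against its fall in CD4+ cells. TRAV9-2 was lower in gut in both, with -0.57 (adjusted p = 0.0305) in CD8+ cells and -0.64 (adjusted p = 0.0591) in CD4+ cells. TRAJ7 had 1.71% ± 0.15 and 1.58% ± 0.22 in CD8+ cells (0.11, adjusted p = 0.758). Whether the difference between tissues differed between CD4+ and CD8+ cells was not tested.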

How the data were processed

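Sorted donor T cells were pooled, RNA was amplified with a SMARTer mouse TCR kit, and MiSeq reads were assembled into CDR3 clones by MiXCR and joined by VDJtools, with mm10 as the build named. The deposited table gives, per CDR3 amino acid sequence, 1 nucleotide sequence, 1 TRAV and 1 TRAJ name, and the fraction of reads in each library, as computed by the authors. Counts of reads are not in it, so no counting interval was computed. Of the joined libraries, 3 were not analysed here. The methods name 2 batches, which the sources used here do not tie to the replicate numbers.

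Fractions were summed by segment, pair, length or residue, divided by the listed share of each library and given in percent. Differences were fitted on log2(percent + a pseudocount of 0.1 for segments, blocks, lengths and residues, 0.02 for pairs and 0.001 for clonotypes) with limma 3.58.1 in R 4.3.3, with genotype as covariate and all features of a family adjusted together, at a threshold of 0.05. Features needed a mean of 0.5% (pairs 0.1%, blocks and residues 0%), and recurrent clonotypes a value above 0 in at least 9 of the 12 libraries. Repertoire means were tested by exact permutation within genotypes. Scripts were tested on simulated data. Replicates pool animals, and p-values measure the spread between these pools. Segment positions are from GENCODE on GRCm38, to which all 109 TRAV and 44 TRAJ names matched. Named features were those that passed, the 3 most used of each family, those of lists (locus ends, D and N copies, residue groups, segments named in earlier work), and the 3 clonotypes of smallest p in each direction. Members, lists and tests were chosen with earlier results of these data known. The alternatives are given in the closing section.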

Additional observations from a re-analysis of the deposited data

Results flagged for a closer look

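Among 78 groups of 6 libraries checked for a value far from the others, 4 held one by Dixon's test. This is close to the rate of about 1 group in 20 that chance alone flags. The share of aspartate in the CDR3 core was lowest in the STAT3koPD-1ko gut 2 library, at 2.37% against 2.60% to 2.73% in the other gut libraries. In liver it was highest in the STAT3ko liver 2 library, at 3.00% against 2.76% to 2.81%. The mean TRAV order of the STAT3koPD-1ko liver 1 library was 69.5, against 65.6 to 66.0 in the other liver libraries. The block of distal TRAV with near TRAJ took 6.05% of the STAT3koPD-1ko gut 1 library, against 4.08% to 4.56% in the other gut libraries. No departure of these libraries beyond the chance rate is claimed, and causes were not tested.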

How the results depend on the processing

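Same-numbered gut and liver libraries deviated together in TRAV usage (correlations of deviations 0.20 to 0.22 in 3 genotypes) but not in TRAJ usage (-0.07 to 0.12) or V-J pairs (-0.01 to 0.17), so every pair was above 0.1 in TRAV usage alone, and fits with the block are given beside the results. With the number as a block term, calls were 9 TRAV segments, 7 families, 3 TRAJ segments, 1 V-J block, 0 pairs, 1 CDR3 length, 4 residues and 4 means. With genotype and number pairs as the block they were 8, 7, 2, 1, 0, 0, 3 and 0, where the means could not fall below an exact permutation p of 0.0313. Of the features that passed, the 6 named clonotypes and the 3 means that passed, none reversed direction under the alternatives run for them.

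With each clonotype counted once, 0 TRAV segments, 0 families, 0 TRAJ segments, 0 residues and 0 means passed. Without the filter on low usage, 0 TRAV segments (23 at an unadjusted p under 0.05) and 6 TRAJ segments did. Not divided by the listed share, 6 TRAJ segments, 4 V-J blocks and 11 residues did, the last all lower in gut. Among clonotypes of at least 3 libraries, 5 residues passed, and of at least 9 libraries (added after seeing the data) 1 TRAV segment, 2 families, 1 TRAJ segment and 1 block. Without the most frequent clonotype of each segment (also added) 1 TRAJ segment passed. With TRAV usage held at its mean (added) 0 residues passed, with 4 and 5 residues left out at the ends 1, and over the whole CDR3 7.

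With libraries numbered 1 only, 0 TRAV segments, 0 TRAJ segments, 2 pairs, 1 length, 0 residues and 0 means passed, and with those numbered 2 only 11, 0, 4, 2, 2 and 0, and 1 block. Gut 1 alone against all liver libraries (added) gave 1 TRAV segment and 0 TRAJ segments, residues and means, and gut 2 alone 10 TRAV segments, 1 TRAJ segment, 1 block, 2 lengths, 9 residues and 0 means. The means cannot pass with 1 number, since the smallest exact permutation p is 0.25, or 0.0741 against all liver libraries. Leaving out 1 library gave 1 to 9 TRAV segments, 4 to 8 families, 0 to 4 TRAJ segments, 0 to 1 blocks, 0 to 1 pairs, 0 to 1 lengths, 0 to 4 residues and 0 to 3 means. The causes were not tested. Changing pseudocounts moved no count by over 1.5 times, and recurrent clonotypes and the interaction with genotype gave 0 calls in every fit. Read counts are unknown, so the precision of low shares could not be given.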

Other observations

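TRAJ7 receptors were divided by whether their CDR3 ends in DYSNNRLTL, the sequence that TRAJ7 codes for when few of its bases are trimmed. This set was chosen after the values were seen, so its CD4+ values are given without a test. Its 308 clonotypes took 1.25% ± 0.30 of gut reads (0.808% to 1.73%) and 0.682% ± 0.19 of liver reads (0.383% to 0.887%), a difference of 0.569 percentage points. Its most frequent clonotype, the TRAV14N-3 receptor CAASDYSNNRLTL, took 0.350% and 0.136% of these. Without that clonotype the set took 0.901% ± 0.25 and 0.546% ± 0.15, a difference of 0.355 points, and the ranges overlapped (0.581% to 1.33% in gut and 0.324% to 0.717% in liver). All other TRAJ7 receptors took 0.673% ± 0.11 and 0.690% ± 0.08 (SD, n = 6 each). When each clonotype was counted once, the set made up 0.640% of gut and 0.570% of liver clonotypes. Of its 35 recurrent members, 28 had a positive log2 difference, with a median of 0.91, beside 17 of 26 and a median of 0.28 for other TRAJ7 receptors and 2406 of 3937 and a median of 0.22 for all recurrent clonotypes. In donor CD8+ cells, which did not enter the choice, the set took 1.02% ± 0.13 of gut reads and 0.881% ± 0.13 of liver reads (n = 6 each, exact permutation test within genotypes, two-sided, p = 0.148).

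A TRAV5-1 receptor with TRAJ27 held 0.204% of the STAT3ko liver 1 library and was listed at 0 in every other liver library. A TRAV10N receptor with TRAJ45 held 0.204% of the STAT3ko gut 2 library and was listed at 0 in all 6 liver libraries.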
